A study of Homo sapiens with 4 samples.

Results

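The mRNAs of 9 genes for extracellular vesicle (EV) markers and vesicle biogenesis were followed in the total RNA of EVs from PC3 cells, a prostate cancer (PCa) cell line derived from a bone metastasis. The genes are CD9, CD63, CD81, PDCD6IP, TSG101, SDCBP, FLOT1, RAB27A and RAB27B. They were chosen by the known role of their proteins and matched by Ensembl identifier, and all 9 were found among the 58051 genes of the table, of which 19629 are annotated as protein-coding. The series holds 4 libraries from PC3 EVs, 2 of small RNA and 2 of stranded total RNA, and the total RNA libraries, replicates 1 and 2, are used here. The cells were untreated PC3 cells grown in medium with serum. The vesicles were collected from medium with exosome-free serum and isolated with the exoEasy kit and qEV size-exclusion columns in the study's methods, of which the labels name the qEV columns, and all of them come from 1 cell line. Both libraries belong to the same condition, so the data give levels and their spread and no contrast between treatments. RNA of the PC3 cells themselves was not analysed here, so a level in EVs cannot be set against the level in the cell, and fewer vesicles that carry an mRNA cannot be told apart from fewer copies in each vesicle.

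Small EVs of the exosome type form when the membrane of an endosome buds inward, and they are released when that endosome fuses with the cell surface. The proteins of the ESCRT complexes, which sort cargo and cut the bud free, the syntenin and ALIX adaptors and lipid-raft proteins take part in the budding, and RAB27 GTPases bring the endosome to the plasma membrane. Tetraspanins, membrane proteins that cross the bilayer several times, are concentrated in the vesicle membrane, and CD9, CD63 and CD81 are the proteins most often used to recognise EVs. All these are roles of the proteins. That a protein is abundant in the vesicle does not say that its mRNA is.

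Reads in both replicates were found for 4 of the 9 (CD63, CD81, PDCD6IP and SDCBP), against 21.9% of all protein-coding genes, where 1 read in each was enough. A read in either replicate was found for 6, adding TSG101 and RAB27B, against 42.3% of protein-coding genes. At least 10 reads in both replicates were found for 1, CD81, against 11.6%. No read was counted on CD9, FLOT1 or RAB27A in either library. Together the 9 genes took 67 reads in replicate 1 and 71 in replicate 2. This is a summed level of 137 CPM (the count per 1000000 reads on genes, with a 95% exact Poisson interval of 106 to 174) in replicate 1 and 149 CPM (117 to 188) in replicate 2, with a mean of 143 ± 8.63 (SD, n = 2). Relative to its mean, the spread of the sum was smaller than that of CD63 or TSG101 and near that of CD81 (35.2 CPM ± 2.25, SD, n = 2). CD63 rose from 5 reads to 29 and TSG101 fell from 26 to 0, so a similar sum does not mean similar levels of each gene.

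**Figure D1:**
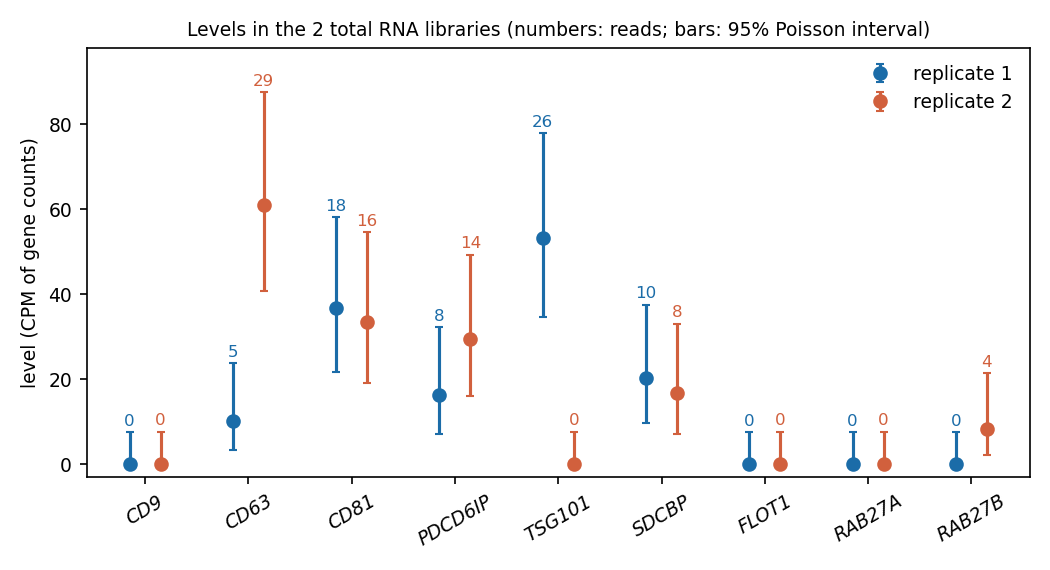
Level of each of the 9 genes in CPM in replicate 1 (blue) and replicate 2 (orange), with the read count printed above each 95% exact Poisson interval. The intervals of the replicates overlap for CD81, PDCD6IP, SDCBP and RAB27B and not for CD63 and TSG101, and CD9, FLOT1 and RAB27A are at 0 in both.

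The libraries are shallow on genes. The reads counted on genes were 489170 in replicate 1 and 475942 in replicate 2, 2.50% and 2.16% of the reads in the files. Another 45.5% and 48.1% aligned to more than 1 place, and 36.3% and 35.4% were assigned to no annotated feature by the counting. Each read adds 2.04 CPM to a gene of replicate 1 and 2.10 to a gene of replicate 2. The floor used for genes without reads, 3 reads, is 6.13 and 6.30 CPM. Even numbers made up 70.8% and 68.0% of the protein-coding counts above 0, and 8 of the 10 counts above 0 of the 9 genes. The cause of this was not tested, and the Poisson intervals treat every read as independent and cover counting error only. A count of 0 is also a loose measure. Among the 3321 protein-coding genes with at least 20 reads in a replicate, 636 (19.2%) had 0 in the other. The cell label was checked against lists of marker genes. All 5 epithelial markers had reads in both replicates, led by KRT8 with 966 and 1088. The luminal prostate genes KLK2, KLK3 and TMPRSS2 had no read, nor had any of the 6 blood and serum markers or the 4 osteoblast markers. Of 5 stromal and endothelial markers 3 had reads, COL1A1 with 35 and 1, COL1A2 with 1 and 12 and PECAM1 with 0 and 44.

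CD81, a tetraspanin that organises membrane proteins and is a partner of integrins and immunoglobulin-like proteins, had the replicate levels closest to each other among the genes with reads in both. CD81 (ENSG00000110651, chromosome 11, 2376177 to 2397802, plus strand, GRCh38, with 7986 bases of merged exon) had 18 reads in replicate 1 and 16 in replicate 2, 36.8 CPM (95% exact Poisson interval 21.8 to 58.2) and 33.6 CPM (19.2 to 54.6). Both values lie inside each other's counting interval, with a mean of 35.2 CPM ± 2.25 (SD, n = 2).

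CD63 is a tetraspanin of late endosomes and lysosomes and the classical marker of their vesicles. CD63 (ENSG00000135404, chromosome 12, 55725323 to 55729707, minus strand, 2422 bases of merged exon) had 5 reads in replicate 1 and 29 in replicate 2, 10.2 CPM (95% exact Poisson interval 3.32 to 23.9) and 60.9 CPM (40.8 to 87.5). The intervals do not overlap, and replicate 2 was 5.96-fold higher. The mean, 35.6 CPM ± 35.9 (SD, n = 2), is therefore no more than a midpoint, and its closeness to that of CD81 does not describe either library.

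CD9 is a tetraspanin of the plasma membrane, and the study probed its protein in EVs. CD9 (ENSG00000010278, chromosome 12, 6199715 to 6238271, plus strand, 5829 bases of merged exon) had 0 reads in both replicates. The floor of 3 reads per library corresponds to 1.05 CPM per kilobase of merged exon in replicate 1 and 1.08 in replicate 2. With CD9 set at this floor, the counted level per kilobase was 3.89-fold higher for CD81 and 4.01-fold higher for CD63, each taken from the replicate with the smaller ratio. These ratios leave out counting error and are not lower bounds. The Poisson interval for 0 reads in replicate 1 reaches 7.54 CPM, above the floor of 6.13 CPM. The other genes near CD9 were not empty. Of the 47 other protein-coding genes within 1 Mb of it, 30 had a read in either replicate.

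The genes beside CD63 and CD81 on the other strand had reads as well. CD63-AS1, a long non-coding RNA gene that shares 120 bases of exon with CD63, had 36 reads in replicate 1 and 8 in replicate 2, the reverse order of CD63. CD81-AS1, which shares 30 bases of exon with CD81, had 10 and 73 reads, while CD81 was nearly the same in both. Per kilobase of merged exon the mean was 31.0 CPM ± 27.5 (SD, n = 2) for CD63-AS1 against 14.7 ± 14.8 for CD63. It was 56.4 ± 61.0 for CD81-AS1 against 4.41 ± 0.282 for CD81. Neither difference of means is larger than the larger SD of its pair. Per kilobase, CD81-AS1 was above CD81 in each replicate, whereas CD63-AS1 and CD63 changed order. The libraries are stranded, but the strand setting of the counting is not given in the sources used here, and which strand these reads came from was not tested. The same limit holds for the counts of every other gene here, the counts of 0 included.

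The stretch common to CD81 and CD81-AS1 is short enough to print, and it shows the sequence that both annotations claim. It lies in the coding part of CD81 at chr11:2377586-2377615 of GRCh38, written on the plus strand, which is the sense strand of CD81. All 30 bases lie in annotated exons of both genes, and CD81-AS1 reads the complementary strand.
CD81 and CD81-AS1: CTGCTCTTCGTCTTCAATTTCGTCTTCTGG

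**Figure D2:**
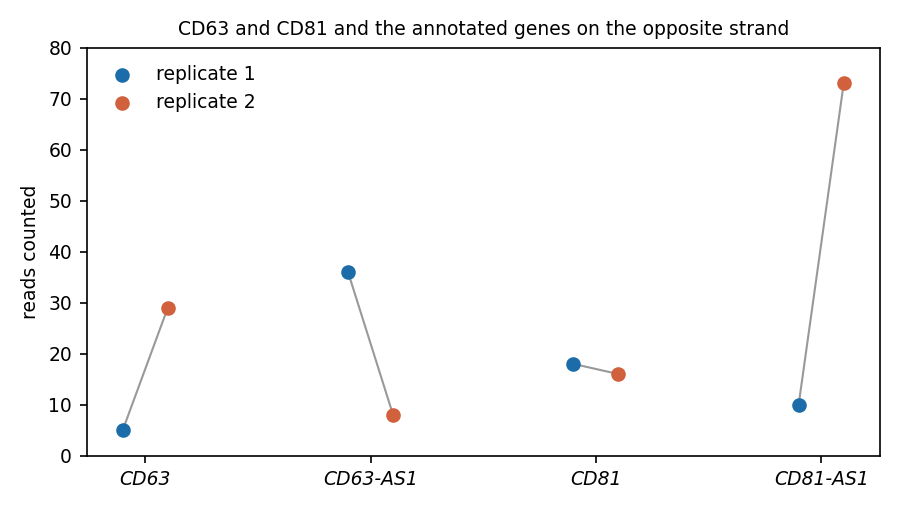
Reads counted on CD63, CD81 and the annotated genes on their opposite strands in replicate 1 (blue) and replicate 2 (orange), with a line joining the replicates of each gene. CD81 changes little (18 and 16 reads), whereas CD63 (5 and 29), CD63-AS1 (36 and 8) and CD81-AS1 (10 and 73) differ between the replicates.

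The cytoplasmic proteins of budding had reads for all 3 genes examined, for TSG101 in replicate 1 only. PDCD6IP encodes ALIX, an adaptor that binds syntenin and recruits ESCRT-III. PDCD6IP (ENSG00000170248, chromosome 3, 33798571 to 33869707, plus strand, 8819 bases of merged exon) had 8 reads in replicate 1 and 14 in replicate 2, 16.4 CPM (95% exact Poisson interval 7.06 to 32.2) and 29.4 CPM (16.1 to 49.4), with a mean of 22.9 ± 9.24 (SD, n = 2). These intervals overlap. The 2 unprocessed pseudogenes named after it, PDCD6IPP1 and PDCD6IPP2 on chromosome 15, had 0 reads in both replicates.

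SDCBP encodes syntenin, the adaptor that joins syndecans to ALIX. SDCBP (ENSG00000137575, chromosome 8, 58552924 to 58582859, plus strand, 4777 bases of merged exon) had 10 reads in replicate 1 and 8 in replicate 2, 20.4 CPM (95% exact Poisson interval 9.80 to 37.6) and 16.8 CPM (7.26 to 33.1). The intervals overlap widely, around a mean of 18.6 CPM ± 2.57 (SD, n = 2). The processed pseudogene SDCBPP1 on chromosome 10 had 0 reads in replicate 1 and 10 in replicate 2, and SDCBPP2 and SDCBPP3 had none. Reads that aligned to more than 1 place form a class apart from the gene counts here. Reads shared by a gene and its copy may be among them, so the level of SDCBP is uncertain to that extent.

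TSG101 is the ESCRT-I subunit that recognises ubiquitylated cargo. TSG101 (ENSG00000074319, chromosome 11, 18468336 to 18526951, minus strand, 3558 bases of merged exon) had 26 reads in replicate 1, or 53.2 CPM (95% exact Poisson interval 34.7 to 77.9), and 0 in replicate 2. This was the highest count of the 9 genes in replicate 1 and no count at all in replicate 2, where the upper end of the interval is 7.75 CPM. The mean of 26.6 CPM rests wholly on replicate 1 and is 0 without it. Of the genes that share exon sequence with TSG101, LDHAL6A on the opposite strand and the pseudogene YWHABP2 on the same strand had no read in either library.

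To ask which of these differences exceed counting noise, the counts of the 2 libraries were compared gene by gene with a two-sided exact binomial test, adjusted by the Benjamini-Hochberg method over the 5764 protein-coding genes whose reads in both together reached 10. The test compares these libraries and not conditions, and it measures reads rather than the spread between cultures. Of the 5 genes with enough reads, 2 differed, TSG101 (exact adjusted p = 2.97e-07) and CD63 (exact adjusted p = 6.76e-05), against 64.1% of all genes tested, so a difference between the libraries was the more common outcome among protein-coding genes. CD81 (exact adjusted p = 0.896), SDCBP (0.854) and PDCD6IP (0.265) were not past the threshold of 0.05, although PDCD6IP was 1.80-fold higher in replicate 2, so differences of that size were not detectable at these counts. With every count halved, a choice made after the even counts were seen, the same genes, TSG101 and CD63, were past it.

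FLOT1 encodes flotillin-1, a scaffold protein of lipid rafts. FLOT1 (ENSG00000137312, chromosome 6, 30727709 to 30742732, minus strand, 3185 bases of merged exon) had 0 reads in both replicates, and its surroundings did not have reads either. Within 1 Mb of FLOT1 lie 77 other protein-coding genes, and 1 of them had a read in either replicate. Within 2 Mb the count was 1 of 141. Across all protein-coding genes the share with a read in either replicate was 42.3%, and around the other 8 genes it ran from 1 of 5 genes at SDCBP to 63.8% at CD9. The count of 0 on FLOT1 was thus shared by nearly every gene near it. The windows were set after the values were seen, and the cause was not tested.

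**Figure D3:**
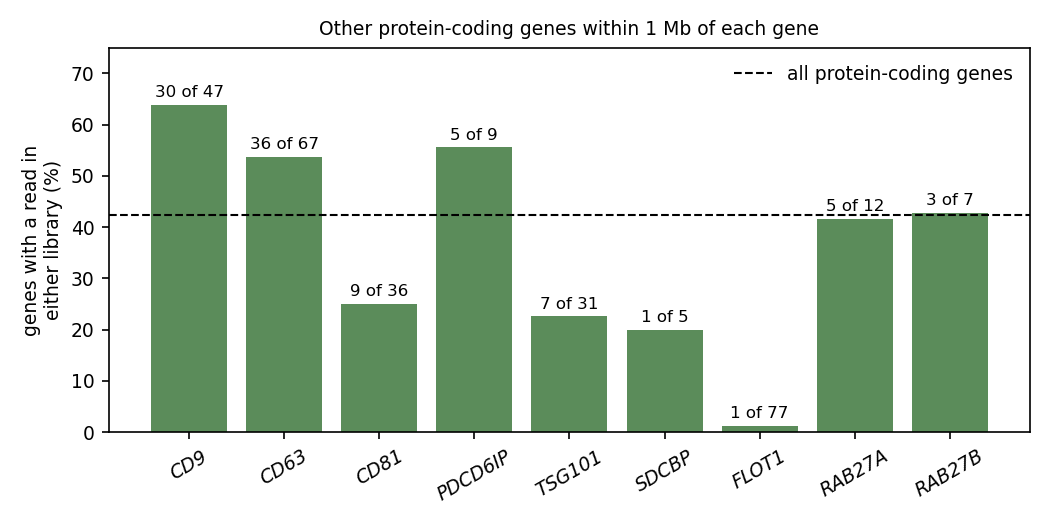
Percentage of the other protein-coding genes within 1 Mb of each of the 9 genes that had a read in either library, with the number of genes above each bar and the share among all protein-coding genes, 42.3%, as a dashed line. FLOT1 stands out with 1 of 77, while the neighbours of CD9 had reads in 30 of 47.

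The RAB27 GTPases dock endosomes at the plasma membrane, and RAB27A and RAB27B are close relatives. RAB27A (ENSG00000069974, chromosome 15, 55202966 to 55319113, minus strand, 11345 bases of merged exon) had 0 reads in both replicates, the gene with the most exon sequence of the 9. Its floor of 3 reads was therefore the lowest per kilobase, 0.541 CPM per kilobase in replicate 1 and 0.556 in replicate 2. With RAB27A set at this floor, the counted level of CD81 was 7.58-fold higher in the replicate with the smaller ratio. That ratio too leaves out counting error and is not a lower bound. PIGB and PIGBOS1, whose exons overlap those of RAB27A, also had 0 reads, and 5 of 12 other protein-coding genes within 1 Mb had a read in either replicate. RAB27B (ENSG00000041353, chromosome 18, 54717860 to 54895516, plus strand, 7154 bases of merged exon) had 0 reads in replicate 1 and 4 in replicate 2, 8.40 CPM (95% exact Poisson interval 2.29 to 21.5). The interval of replicate 1, which reaches 7.54 CPM, overlaps that of replicate 2, so no difference between them was detectable at this depth.

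Genes were put in order by the mean CPM per kilobase of merged exon, a scale that takes out length. CD63 was highest (14.7 ± 14.8, SD, n = 2), then TSG101 (7.47 ± 10.6), CD81 (4.41 ± 0.282), SDCBP (3.90 ± 0.538), PDCD6IP (2.59 ± 1.05) and RAB27B (0.587 ± 0.831), with CD9, FLOT1 and RAB27A at 0. The steps from CD63 to TSG101, from TSG101 to CD81 and from CD81 to SDCBP are within the larger SD of each pair, and the first 2 of these changed order between replicates. The steps from SDCBP to PDCD6IP and from PDCD6IP to RAB27B are larger than either SD and had the same order in both replicates. The mean levels of CD81, SDCBP and PDCD6IP, whose replicates were not called different, ran from 2.59 to 4.41 CPM per kilobase.

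Among all 19629 protein-coding genes, 94.4% had a lower mean level per kilobase than CD63, 88.6% a lower one than TSG101, 82.5% a lower one than CD81, 81.0% a lower one than SDCBP and 76.0% a lower one than PDCD6IP, the median of the 9. For RAB27B it was 62.9%. Most protein-coding genes had no read, which places any gene with a few reads in the upper part. Among the 8296 genes with a read in either replicate, CD63 stood above 86.8%, TSG101 above 73.1%, CD81 above 58.6%, SDCBP above 54.9%, PDCD6IP above 43.2% and RAB27B above 12.2%. The median level of these 8296 genes was 3.30 CPM per kilobase. By mean CPM, CD63 ranked 2380 and CD81 2409 among protein-coding genes. CD63, the highest of the 9 by mean CPM, was set beside other protein-coding genes with at least 10 reads in both replicates. CD63 itself does not reach that minimum. The nearest of those genes were XRRA1 (10 and 30 reads), CDT1 and LRRC51 (10 and 28 reads each). They lay at a distance of about 0.94 on the log2(CPM + 1) scale over 2 libraries, which is too few to describe a shared pattern. The tetraspanin gene ROM1, left out by the minimum, had 5 and 35 reads and was nearer to CD63 on this scale.

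**Figure D4:**
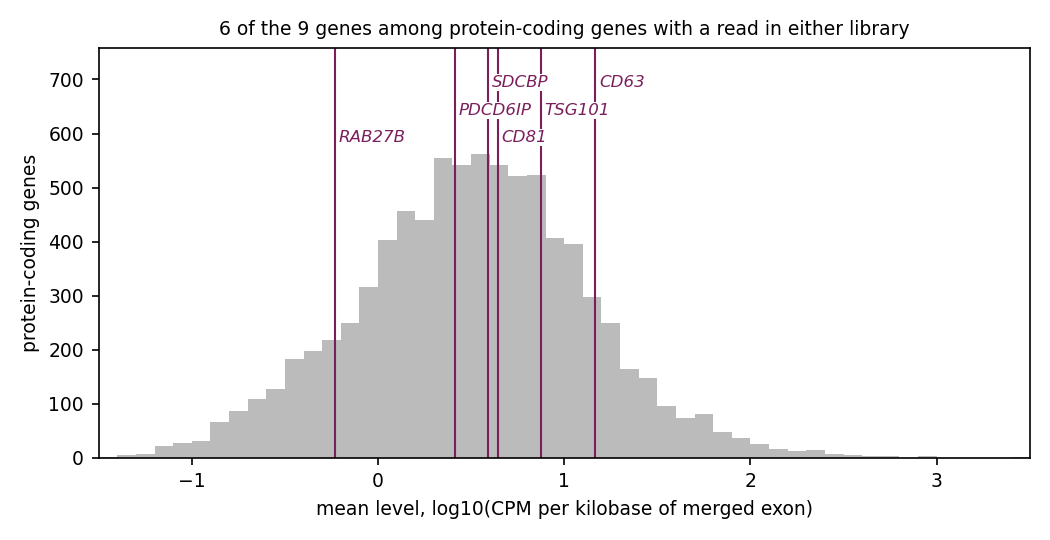
Number of protein-coding genes at each mean level, in log10 of CPM per kilobase of merged exon, for the 8296 genes with a read in either library, with vertical lines at the 6 genes that had a read. CD81, SDCBP and PDCD6IP fall in the middle of the distribution, CD63 is in its upper part and RAB27B in its lower part.

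The rest of the pathway was described with gene lists. Of 110 other genes of the pathway, 34 (30.9%) had a read in both replicates, beside 21.9% of all protein-coding genes, and 48 had none in either. Of the 30 other tetraspanins 5 had a read in both replicates (16.7%) and 21 had none, CD82 and CD53 among them. The highest per kilobase was TSPAN31 with 146 and 61 reads (40.6 CPM per kilobase ± 22.9, SD, n = 2). CDK4, on the opposite strand to 1369 of its exon bases, had 23 and 6 reads. CD37, a tetraspanin known mainly from B cells, had 52 and 58 reads (27.4 ± 2.64) with 319 bases opposite TEAD2, at 6 and 4 reads. CD151, a partner of laminin-binding integrins, had 32 and 21 reads (14.1 ± 3.87) with 257 bases opposite POLR2L, at 120 and 143 reads. ROM1 had 5 and 35 reads with 595 bases opposite EML3, at 41 and 4 reads.

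Of 10 genes for surface partners of tetraspanins 6 (60%) had a read in both replicates, beside 21.9% of all protein-coding genes. CD44, a hyaluronan receptor, had 72 and 44 reads (12.0 CPM per kilobase ± 3.87, SD, n = 2), ITGA3 48 and 34 (8.65 ± 1.93) and ITGA6 20 and 24 (6.84 ± 1.01). These integrin chains pair with CD151. ITGB1 had 10 and 8 reads, EPCAM 2 and 26 and ITGB4 26 and 1. In the exact binomial test 3 of the 6 differed between the replicates, EPCAM, ITGB4 and CD44, against 64.1% of all protein-coding genes tested. The call of CD44 was the weakest of these (exact adjusted p = 0.0257), and the test treats every read as independent. CD44-AS1, opposite 84 bases of CD44 exon, had 54 and 39 reads, and the non-coding gene ENSG00000226963, opposite 174 bases of ITGA6 exon, had 79 and 69. PTGFRN, IGSF8, CLDN7 and CD47 had none in either library.

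For the ESCRT machinery that works with TSG101 and ALIX, the shares with a read in both replicates stand beside 21.9% of all protein-coding genes. Of 11 genes of ESCRT-0 and ESCRT-I 4 (36.4%) had a read in both replicates. HGS had 149 and 29 reads, MVB12A 22 and 18, UBAP1 8 and 10 and VPS37A 3 and 18. A long non-coding RNA gene opposite 1815 bases of HGS exon had 136 and 54. Of 15 genes of ESCRT-II and ESCRT-III 6 (40%) had a read in both. CHMP4B, the ESCRT-III subunit that forms the main filament and binds ALIX, had 40 and 63 reads (66.8 CPM per kilobase ± 22.3, SD, n = 2) and CHMP2A 30 and 37 (19.0 ± 3.18). CHMP4C had 34 and 4 and the ESCRT-II gene SNF8 80 and 8, with 64 and 96 on a non-coding gene opposite 483 bases of SNF8 exon. The ESCRT-II genes VPS25, with 0 and 6, and VPS36, with 0 and 2, had reads in replicate 2 only. Of 4 genes of the VPS4 ATPase and other accessory proteins 1 (25%) had a read in both, close to the share of all protein-coding genes. It was PTPN23, a relative of ALIX, with 4 and 26. PTPN23-DT, opposite 170 bases of PTPN23 exon, had 11 and 0.

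Of 8 genes linked to syndecan and syntenin 4 (50%) had a read in both replicates, beside 21.9% of all protein-coding genes. SDC1, the syndecan of epithelial cells, had 80 and 86 reads (47.6 CPM per kilobase ± 3.36, SD, n = 2), against 10 and 8 reads (3.90 ± 0.538) on SDCBP, the gene of its adaptor. ARF6, a GTPase of this route, had 59 and 34 reads, SDC3 7 and 23 and SDCBP2 6 and 13. SDC2 and SDC4 had none. Of the 7 genes of rafts and ceramide synthesis 2 (28.6%) had a read in both, SMPD3 with 6 and 16 and SMPD2 with 4 and 2. PPIL6, opposite 448 bases of SMPD2 exon, had 5 and 36. FLOT2 had 0 and 8, CAV1 10 and 0 and CAV2 20 and 0.

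On the side of release, 1 of 10 RAB27 effector genes (10%) had a read in both replicates, against 21.9% of all protein-coding genes. It was SYTL1 with 18 and 8, and 5 effector genes had none. Of the 7 other RAB and RAL genes 3 (42.9%) had a read in both. RAB35 had 29 and 26 reads (14.2 CPM per kilobase ± 0.819, SD, n = 2) and RAB7A 12 and 12 (3.46 ± 0.0670), and RALB had 4 and 2. RAB31, with 28 and 0, and RAB11A, with 14 and 0, had reads in replicate 1 only, and RAB5A had 0 and 4. Of 8 fusion genes 2 (25%) had a read in both, STX1A with 17 and 6 and STX4 with 6 and 16. YKT6 had 0 and 24, SNAP23 0 and 16 and VAMP7 12 and 0.

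**Figure D5:**
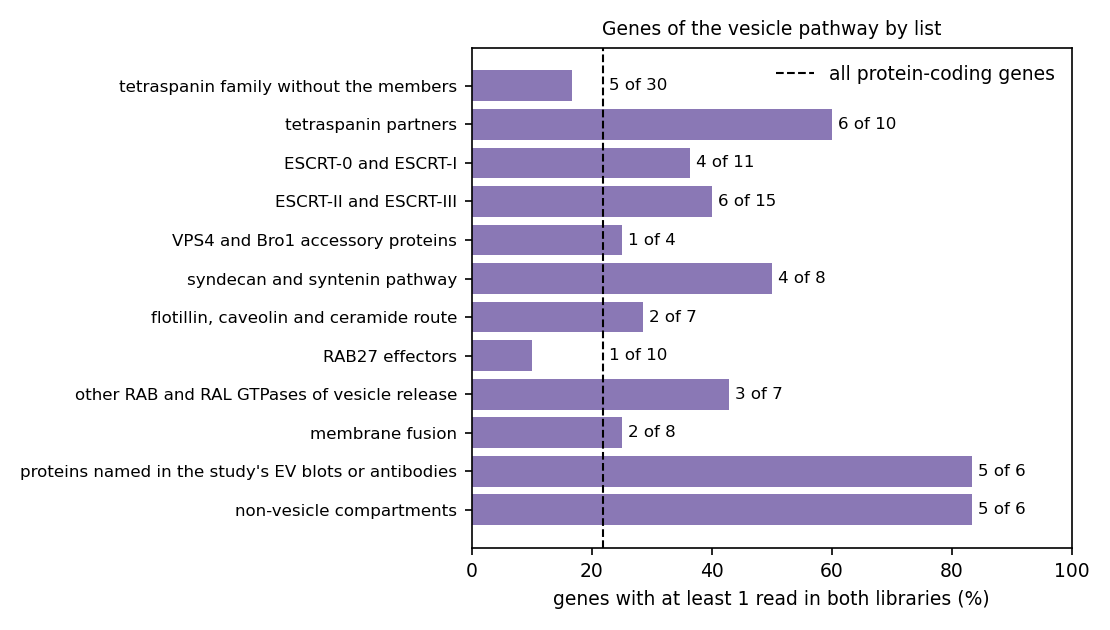
Percentage of the genes of each list with at least 1 read in both libraries, with the number of genes beside each bar and the share among all protein-coding genes, 21.9%, as a dashed line. The list of proteins from blots or antibodies includes CD9 and PDCD6IP, and the tetraspanin and RAB27 effector lists fall below the line.

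The mRNAs of 6 proteins named among the study's EV blots and antibodies were looked up as well, leaving out Dicer and beta-tubulin. Of these 6 genes 5 (83.3%) had a read in both replicates, beside 21.9% of all protein-coding genes, CD9 being the exception. Next to PDCD6IP, ICAM1 had 22 and 4 reads, EPCAM 2 and 26 and ANXA5 6 and 10. LIMASI, opposite 61 bases of ICAM1 exon, had 279 and 344. GOLGA2, which encodes the Golgi protein GM130 used as a negative control for EV proteins, had 16 and 10 reads (2.43 CPM per kilobase ± 0.749, SD, n = 2), a level within the SD of that of PDCD6IP (2.59 ± 1.05). Of 6 genes of compartments outside the vesicle, GOLGA2 among them, 5 (83.3%) had a read in both replicates. CALR, an endoplasmic reticulum protein, had 80 and 78 reads (58.4 ± 0.0866 CPM per kilobase), with 149 and 204 reads on a long non-coding RNA gene opposite 270 bases of its exons, and the nuclear lamina gene LMNB1 had 10 and 2. Over the 35 genes of all these lists that were named by rule, 20 share exon sequence with a gene on the opposite strand. For 16 of the 20 such a gene had reads, and for 9 its mean level per kilobase was the higher one. The shares among all protein-coding genes were not computed, and the 35 were picked for high levels, so these counts do not describe a trait of the pathway.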

How the data were processed

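RNA of PC3 EVs was sequenced as small RNA and stranded total RNA libraries, in 2 replicates each, called biological in the study's methods. For total RNA, the deposited values are the authors' raw counts of reads on each Ensembl gene, after adapter trimming and alignment to GRCh38. HTSeq is named in the submitters' processing notes, and the versions, strand setting and annotation release are not given in the sources used here. Files were tied to replicates 1 and 2 through the sample descriptions, since both titles carry the same library name. The small RNA table was not used. No RefSeq protein table was used.

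Of the gene identifiers 56948 matched GENCODE release 44 and 1103 did not. Rows of reads not counted on genes (all but 2.50% and 2.16% of the reads in the files) were left out of library totals. CPM used all gene counts, and exons were merged per gene. Counts carry exact Poisson intervals (95%). Replicates were compared with exact binomial tests, Benjamini-Hochberg adjusted over all protein-coding genes with at least 10 reads, threshold 0.05. The code was tried on simulated independent Poisson counts. These follow the model the test assumes, so that trial does not show how the test behaves on the real counts. With 1 condition there was no contrast to test in edgeR or DESeq2, and edgeR 4.0.16 and DESeq2 1.42.0 gave alternative scaling factors only. Other values came from Python 3.11.15, scipy 1.17.1 and pandas 2.3.3.

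The genes and lists were chosen with earlier results of these data known. Named by rule were all 9 genes, genes or pseudogenes overlapping or copying them, up to 4 genes per list with the highest CPM per kilobase among those with a read in both replicates, and the 6 genes of the list from blots and antibodies. The rule also named the 3 genes nearest to the highest of the 9, among other protein-coding genes with at least 10 reads in both replicates. Other genes were named after their values were seen. Some marker and neighbouring genes are not reported here. Alternatives were other count minimums, scalings, length measures, a filter on genes without reads and leaving out each replicate.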

Additional observations from a re-analysis of the deposited data

How the results depend on the processing

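No paired analysis was possible because the shared replicate numbers link only small RNA to total RNA libraries of the same condition. The number of genes with reads in both replicates, 4, became 1 with a minimum of 10 reads. It was 4 with a minimum of 3 reads, 6 with a read in either replicate and 5 with each replicate left out in turn. The summed level moved from 143 to 243 CPM when protein-coding counts alone made up the total, was from 137 to 149 with single replicates and kept within its SD under TMM and DESeq2 scaling. The median percentile per kilobase, 76.0, was 43.2 among genes with a read with the 3 genes without reads kept at 0, 56.8 over the 6 genes with a read, 79.0 by CPM without length, and from 71.5 to 76.8 with single replicates. TSG101 and CD63 differed between the replicates, and the other 3 tested did not, under both scalings, without the filter and with halved counts, where the share of all genes that differed ran from 41.3% to 64.4%. Without replicate 1 TSG101 is at 0 and CD63 at 60.9 CPM, and without replicate 2 CD63 is at 10.2 and RAB27B at 0. Depth limits every value here, since 1 read is about 2 CPM, and the strand of the counted reads was not tested for any gene.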
